A study of Mus musculus with 8 samples.

Results

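Myc, the G1 cyclins and the genes that brake entry into S phase were followed in RIP-seq of YTHDF3, a cytoplasmic reader protein of the RNA mark N6-methyladenosine (m6A), in mouse embryonic fibroblasts (MEFs). The 10 genes were Myc, Ccnd1, Ccnd2, Ccnd3, Ccne1, Ccne2, Cdk6, Cdkn1a, Rb1 and E2f3, and their peaks were found by the gene name that each deposited peak carries. Of 8612 genes named in the kept peaks, 6 were among these 10, with 36 of 87096 peaks. The MEFs were wild-type C57BL/6 cells from embryos at 13.5 days post-coitum, used after 5 to 6 passages. They were kept under normal conditions (untreated) or starved for 2 h in a nutrient-deprived medium, with 2 replicates of each condition. Each replicate had an immunoprecipitate (IP) made with an antibody to endogenous YTHDF3 and an input of polyA RNA, 8 samples in all. The samples were not said to come from separate embryos, so p-values measure the spread between these samples alone.

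Cells decide in G1 whether to divide again. D-type cyclins bind CDK4 or CDK6 and begin the phosphorylation of the retinoblastoma protein, E-type cyclins with CDK2 complete it, and E2F factors that are then released switch on genes of S phase. MYC drives this program, while CDKN1A (p21) inhibits the cyclin-CDK complexes and RB1 holds the E2F factors. Fibroblasts deprived of nutrients or serum leave this program. Several of these mRNAs are short-lived and have long 3′ ends, where m6A is common, often in the sequence GGAC.

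A peak in these lists is a stretch where IP reads exceeded input reads. The main value compared is the IP/input fold, scaled for library size. IP reads and input reads per kb or per base were also compared, each on its own. Where a peak had fewer than 3 input reads they were counted as 3. A region with several peaks in a list took the fold of the peak with the highest one, and its reads were summed. Peaks that overlapped between lists by 1 bp or more were joined into a region, and a region was compared between conditions where all 4 lists had called it. That held for 6531 of 39979 regions, or 16.3%. By name, 17 regions belonged to the 10 genes and 2 of them were called in all 4 lists, one at exon 1 of Ccnd2 and one at exon 4 of Cdk6. Names follow the nearest gene start, so every kept peak was also placed on the exons of the mm10 annotation (GENCODE M21). Exons of 5 of the genes held 83 peaks in 27 regions, and 63 of those peaks carried the name of another gene. Of these regions 8 were called in all 4 lists, 2 in Ccnd2, 4 in Cdk6 and 2 in E2f3.

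The stretches shown are 30 bases of the transcribed strand (mm10, RefSeq sequence) around the exonic GGAC nearest the centre of the main region of each gene that had one, with the Myc peak and the 3′ regions beside them. Capitals mark GGAC. They lie at chr6:127150781-127150810 (minus strand, 5′UTR), chr6:127127859-127127888 (minus strand, 3′UTR), chr5:3429077-3429106 (plus strand, coding), chr5:3521364-3521393 (plus strand, 3′UTR), chr13:29908828-29908857 (minus strand, 3′UTR) and chr15:61989645-61989674 (plus strand, coding).
Ccnd2 exon 1: aaatttacagtcgGGACcgagtggtggccg
Ccnd2 3′ end: ccattcagacacaGGACtttcctcttcatg
Cdk6 exon 4: ggtgaccagcagtGGACagataaagctggc
Cdk6 3′ exon: tgttaggaaggttGGACctaagtcctcaga
E2f3 3′ exon: tggtccacagtgaGGACctcgggccagata
Myc exon 3: aacgacaagaggcGGACacacaacgtcttg

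**Figure D1:**
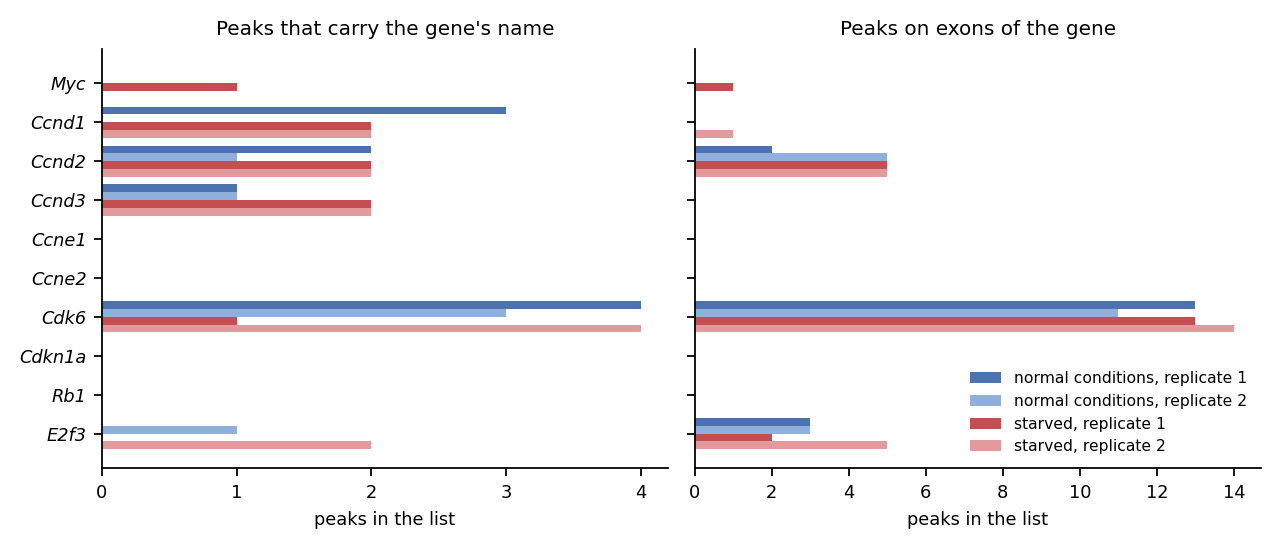
Number of kept peaks in each of the 4 lists (bar length, x axis) for each of the 10 genes (y axis), by the name the peak carries (left) and by overlap with exons of the gene (right). Ccnd2, Cdk6 and E2f3 had peaks on their exons in all 4 lists, Ccnd3 had peaks by name alone, and Ccne1, Ccne2, Cdkn1a and Rb1 had none.

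Ccnd2, which encodes cyclin D2, a D-type partner of CDK4 and CDK6, held by far the most reads of the 10 genes. The region at its 3′ end (chr6:127125081-127130730) covered the last coding exon and the whole annotated 3′UTR of 5176 bases, and its peaks carried the name Tigar, the neighbouring gene downstream. Its IP reads were 51745 and 83868 under normal conditions and 96263 and 108917 after starvation. Input reads there were 15372 and 30282 under normal conditions and 14261 and 25634 after starvation. Per kb, the IP reads were 29.3 and 36.0 times the median region of the library under normal conditions and 28.7 and 38.8 times after starvation. The order of replicates was thus the same in both conditions, and the conditions overlapped. This 1 region took 0.587% and 0.583% of all IP reads in peaks under normal conditions and 0.613% and 0.565% after starvation. Among the 6531 regions it ranked 22 by IP reads per kb and 23 by input reads per kb.

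The IP/input fold of the Ccnd2 3′ end was 2.71 and 2.77 under normal conditions and 2.89 and 2.83 after starvation. Both starved values lay above both normal values, by a margin of 0.09 and 0.03 on the log2 scale within replicates 1 and 2. The edgeR quasi-likelihood test of the IP/input ratio gave a log2 change of 0.03 (SE 0.16, Benjamini-Hochberg adjusted p = 0.999). A non-coding gene on the opposite strand, Gm43126, overlaps the end of this region, and whether reads were counted by strand is not given in the sources used here.

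Exon 1 of Ccnd2 (chr6:127150351-127151200, 287 bases of 5′UTR and 192 coding bases) was the main region by name. Its IP reads were 7014 and 9054 under normal conditions and 12963 and 12821 after starvation, against 2434 and 4117 and then 2074 and 3071 input reads. The IP/input fold was 2.32 and 2.20 under normal conditions and 2.68 and 2.78 after starvation. The starved folds were higher in both replicates, by 0.20 and 0.34 on the log2 scale, and the conditions did not overlap. Over all regions called in all 4 lists, 14.7% had both starved folds above both normal folds and 13.7% had both below. The edgeR test of the ratio gave a log2 change of 0.24 (SE 0.17, adjusted p = 0.999), so the difference did not pass. IP reads per kb, at 23.9 and 26.8 times the library median under normal conditions and 25.5 and 28.0 times after starvation, differed by a log2 change of 0.08 (SE 0.19, edgeR adjusted p = 0.933). The antisense gene 9330179D12Rik runs across this exon on the plus strand.

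Exons 2, 3 and 4 of Ccnd2 each had a peak in normal replicate 2 and in both starved lists, all under the name 9330179D12Rik, and none in normal replicate 1. Exon 2 (chr6:127148421-127149120) had folds of 2.52 in normal replicate 2 and 2.22 and 2.69 after starvation. Exon 3 (chr6:127145781-127146430) had 2.96, then 2.01 and 3.03, and exon 4 (chr6:127138861-127139490) had 2.73, then 2.05 and 2.90. In each of these exons the normal value lay between the starved ones. Starved replicate 1 was the lowest in all 3 exons, and in exons 3 and 4 it lay just above the minimum fold of 2. The IP reads in normal replicate 2 were 6429, 3718 and 4439 for exons 2, 3 and 4. Upstream of the gene (chr6:127154051-127154630, an intron of the antisense gene) 3 lists had a small peak under the name Ccnd2, with 48 IP reads in normal replicate 1 and 103 and 62 after starvation.

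**Figure D2:**
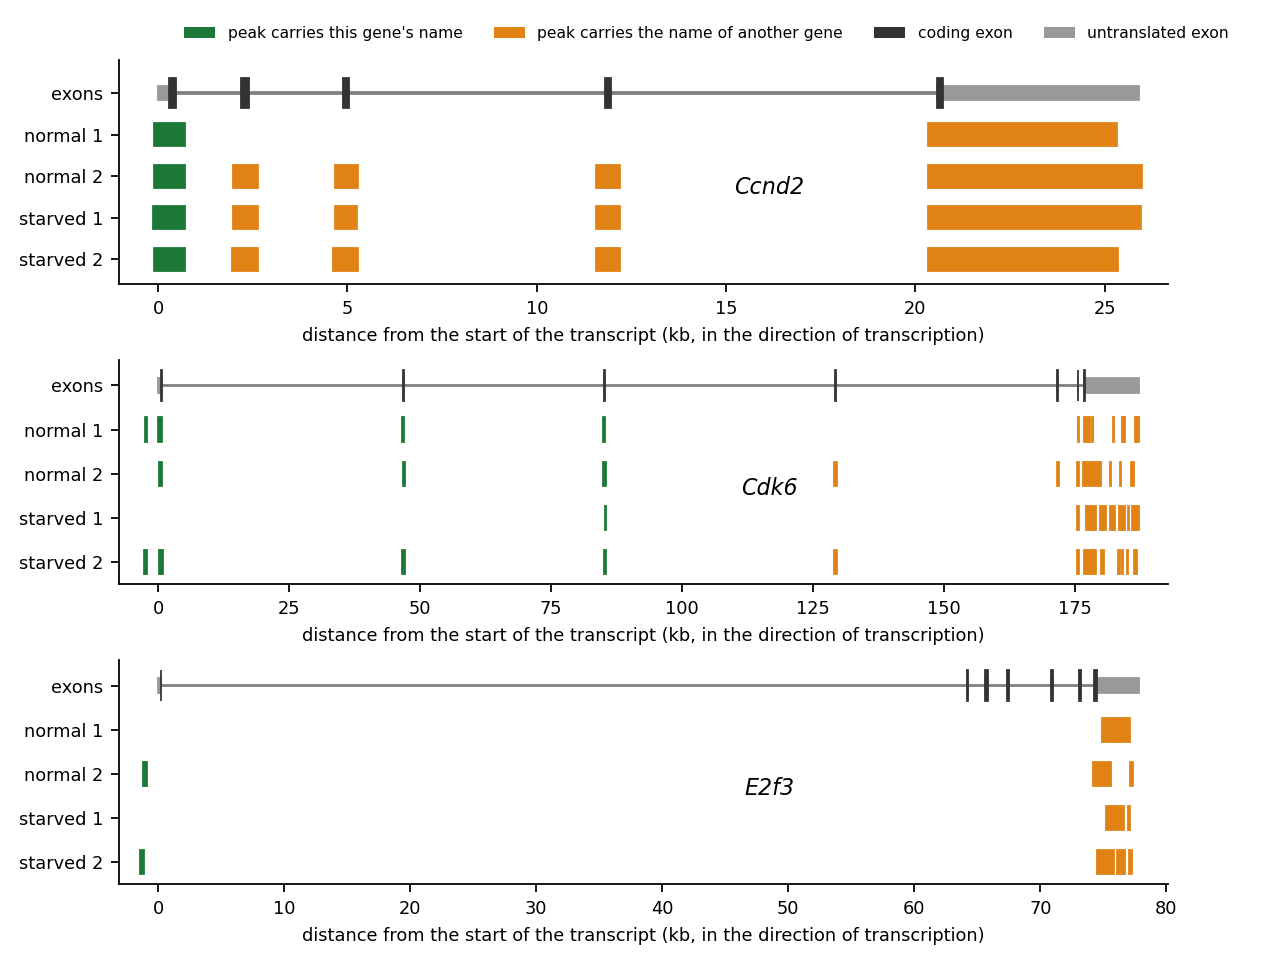
Kept peaks (bars) of the 4 lists along Ccnd2, Cdk6 and E2f3, by distance from the start of the principal transcript in kb, with exons above. Green peaks carry the name of the gene and orange peaks that of another gene. The last exons of all 3 genes held peaks in every list, under other names.

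Cdk6 encodes the kinase that pairs with the D-type cyclins. Its exons held 51 peaks, 12 under its own name, on exons 1 to 4, and 39 under the name Fam133b, the next gene downstream. There were 13 and 11 such peaks under normal conditions, over 4.70 and 7.45 kb, and 13 and 14 after starvation, over 6.41 and 7.41 kb. Mean IP reads over this covered length were 400 and 525 per kb under normal conditions and 490 and 723 per kb after starvation. The spans differ between lists, and the libraries differ in size, so these densities are not a comparison of conditions.

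Exon 4 of Cdk6 (chr5:3428791-3429380, 168 coding bases) was its main region by name. It had 171 and 244 IP reads under normal conditions and 137 and 350 after starvation, with 66 and 93 and then 28 and 102 input reads. The IP/input fold was 2.09 and 2.62 under normal conditions and 2.10 and 2.29 after starvation, so the conditions overlapped. The edgeR test gave a log2 change of -0.15 for the ratio (SE 0.28, adjusted p = 0.999) and 0.04 for IP reads per base (SE 0.25, adjusted p = 0.982).

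The last exon of Cdk6 carries a 3′UTR of 10220 bases, the longest among the principal transcripts of the 10 genes, and held 2 regions called in all 4 lists. The first (chr5:3520441-3523170), which spans the stop codon, had 481 and 1899 IP reads under normal conditions and 1148 and 2276 after starvation. The peaks of starved replicate 1 there held no coding base, and 700 of the 2730 bases lay in a peak of every list. The folds of this region were 2.70 and 2.413 under normal conditions and 2.21 and 2.405 after starvation. Both starved values lay below both normal values, in replicate 2 by 0.0046 on the log2 scale. Such an order held for 13.7% of all regions called in all 4 lists. In replicate 1 the peaks that gave these folds did not overlap (chr5:3520501-3521280 under normal conditions, chr5:3521991-3522860 after starvation). From reads summed over the region, the folds were 2.42 and 2.41, then 2.17 and 2.29. The edgeR ratio test gave -0.15 (SE 0.20, adjusted p = 0.999). Replicate 2 had the denser IP signal in both conditions, 1.69 and 1.70 times the library median, against 1.10 and 1.08 times in replicate 1. The second (chr5:3527131-3528370) had folds of 3.11 and 2.16 under normal conditions and 3.01 and 2.32 after starvation, so replicate 1 was high in both conditions. No base of it lay in a peak of every list, since the 4 lists called different parts. Exon 7 (chr5:3519161-3519670) had folds of 2.07 and 3.60 under normal conditions and 2.53 and 2.20 after starvation, and normal replicate 2 stood above the rest.

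At the start of Cdk6, the region of exons 1 and 2 (chr5:3343901-3344750) was called in 3 lists, and its peak reached exon 1 in normal replicate 1 alone. The folds were 3.005 and 2.13 under normal conditions and 3.9999 in starved replicate 2, with 585, 525 and 882 IP reads. Exon 3 (chr5:3390461-3391030) was called in the same 3 lists, with folds of 2.10, 2.67 and 2.43. Starved replicate 1 had neither, and it had 1 peak under the name Cdk6 where the other lists had 3 to 4. Under the name Fam133b it had 12 on Cdk6 exons, more than any other list. Further upstream, a region of 5′UTR (chr5:3341201-3341760) was called in normal replicate 1 and starved replicate 2, with folds of 2.33 and 2.88. A gap in a list says that no peak was called there, and the reads under it are not given.

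**Figure D3:**
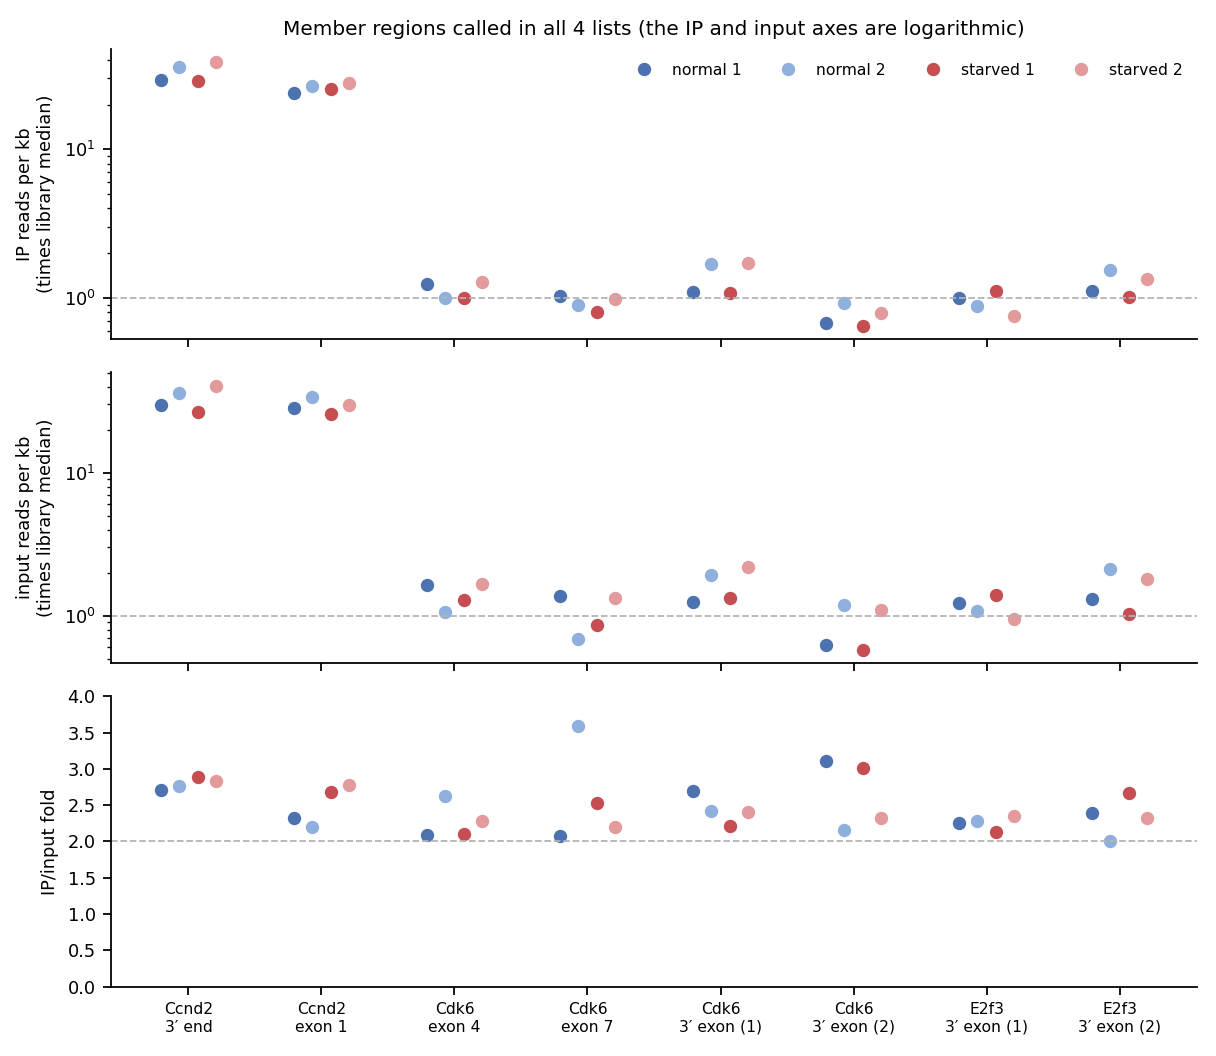
IP reads per kb and input reads per kb (both as times the median region of the library, log axes) and IP/input fold (linear axis, dashed at the minimum of 2) for the 8 regions on exons of the 10 genes called in all 4 lists. Each point is 1 library. Ccnd2 lies more than 23 times above the median in every IP library, the other 6 regions near it. Both starved folds lie above both normal folds at the Ccnd2 regions, as they do in 14.7% of all 6531 regions.

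E2f3 encodes an activating E2F factor. Its exons held peaks in all 4 lists, 11 of 13 under the name Cdkal1, the neighbouring gene downstream, and all 11 in the last exon. The larger region (chr13:29907661-29910180) had 707 and 882 IP reads under normal conditions and 840 and 1410 after starvation, against 243 and 439 and then 135 and 428 input reads. Its folds were 2.39 and 2.01 under normal conditions and 2.67 and 2.33 after starvation. The starved fold was higher within each replicate number, by 0.16 and 0.21 on the log2 scale. The conditions still overlapped, since normal replicate 1 exceeded starved replicate 2. Of the 2520 bases, 280 lay in a peak of every list, and the peaks that gave these folds overlapped only in part. From reads summed over the region, the folds were 2.35 and 2.01, then 2.67 and 2.20. The edgeR ratio test gave 0.11 (SE 0.23, adjusted p = 0.999). The smaller region (chr13:29907051-29907560) had folds of 2.25 and 2.28, then 2.13 and 2.34, and the lists shared no base of it. Under its own name, E2f3 had a peak at exon 1 (chr13:29985311-29985830) in both lists of replicate 2, with 101 IP reads and a fold of 2.20 under normal conditions and 73 IP reads and a fold of 3.24 after starvation. The remaining peak by name lay upstream of the start (chr13:29986371-29986570) in starved replicate 2, with 15 IP reads and no input read.

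Myc, the transcription factor that drives growth and entry into S phase, had 1 peak in the 4 lists. It lay in the coding part of exon 3 (chr15:61989531-61989740, 210 bases) and was called in starved replicate 1, with 88 IP reads against 12 input reads and a fold of 3.14. No peak of the other 3 lists carried its name or lay on its exons, so there was no comparison between conditions, and no region could be ranked for likeness to it.

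Ccnd1, which encodes cyclin D1, had 7 peaks by name in 3 lists and 1 of them on its exons. That peak (chr7:144929981-144930230) lay in the 3′UTR, where the gene LTO1 has exons on the opposite strand, and was called in starved replicate 2 with 126 IP and 40 input reads and a fold of 2.10. Just beyond the annotated 3′ end, in exons of LTO1, the region chr7:144929321-144929750 was called in both starved lists and in neither normal list. It rested on 50 and 29 IP reads against 3 and 2 input reads, too few for a useful fold. Of all 39979 regions, 4.7% were called in both starved lists alone. Normal replicate 1 had 3 peaks by name in intron 3, at the promoter and upstream, with 20, 16 and 13 IP reads and no input read. The Ccnd1 peaks were thus few and shallow, and none was shared between conditions.

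Ccnd3, which encodes cyclin D3, had 6 kept peaks by name and none on its exons. All lay past its 3′ end in the last exon of Bysl, a gene on the opposite strand that encodes a protein of ribosome assembly. The larger region (chr17:47600511-47601550) had folds of 2.12 in normal replicate 1, 3.0002 in starved replicate 1 and 2.38 in starved replicate 2. In normal replicate 2 the deposited list has a peak there with 73 IP and 34 input reads and a fold of 2.15, which was not kept since the deposited p-value lay just above the threshold of 0.0001. With all deposited peaks included, the edgeR ratio test of this region gave a log2 change of 0.19 (SE 0.28, adjusted p = 1.00). The smaller region (chr17:47599831-47600260) was called in replicate 2 of each condition, with 33 and 46 IP reads.

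Ccne1 and Ccne2, which encode the E-type cyclins, Cdkn1a (p21) and Rb1 had no peak in any list, by name or on exons. The lists hold enriched stretches alone, so the levels of these mRNAs in input or IP are not known from them.

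Starvation was then tested over the 6531 regions called in all 4 lists, with p-values adjusted over all of them. Of the 2 regions by name, 0 changed 1.8-fold in both replicates, where 0.367% of all regions rose and 0.352% fell by that measure. In the edgeR quasi-likelihood test of the IP/input ratio 0 of 2 passed an adjusted p of 0.05 (0.0153% of all regions, 1 region, did), and 0 had an unadjusted p under 0.05. For IP reads per base 0 of 2 passed, against 0.184% of all regions higher and 0.934% lower. For input reads per base 0 of 2 passed, against 0.214% higher and 0.766% lower. DESeq2 called 0 of 2 in each of the 3 comparisons. With 2 replicates a side, a permutation test cannot give a two-sided p below 0.333.

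Taken by exons, 0 of 8 regions passed any of the 3 edgeR tests or had an unadjusted p under 0.05, and DESeq2 called 0. Their fitted log2 changes ran from -0.33 to 0.24 for the ratio, -0.17 to 0.08 for IP reads per base and -0.28 to 0.15 for input reads per base. The median log2 change of the fold was 0.09 over the 2 regions by name and 0.00 over the 8 regions by exon, beside 0.01 over all regions. For IP reads per kb the medians were 0.05 and -0.03, beside 0.00, and for input reads per kb -0.01 and 0.01, beside 0.03. Input reads come from whole cultures, so fewer cells that hold an mRNA and less of it per cell cannot be told apart. Of the 8 regions, 3 had a higher fold in both replicates, 1 a lower fold in both, and 4 went different ways, where 1782 of all 6531 regions were higher in both and 1656 lower in both.

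**Figure D4:**
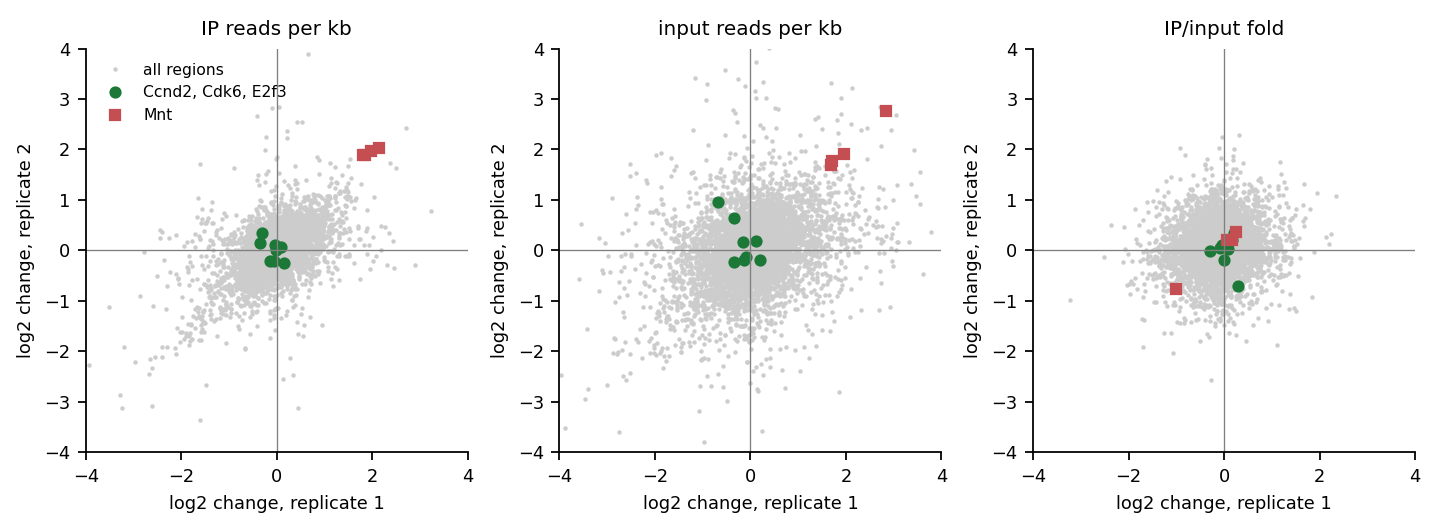
Log2 change from normal to starved in replicate 1 (x axis) and replicate 2 (y axis) of IP reads per kb, input reads per kb and IP/input fold, for all 6531 regions (grey), the 8 regions of Ccnd2, Cdk6 and E2f3 (green) and the 4 regions of Mnt (red). Axes end at 4, which leaves out 3, 17 and 1 regions. The green points lie within the bulk, and the Mnt points lie apart for IP and input but within the bulk for the fold, except 1 that is low in both replicates.

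The level of enrichment in the 8 exon regions called in all 4 lists was modest beside other such regions. Mean folds over the 4 libraries were 2.25 to 2.80 in the 8 regions, and the median over all 6531 regions was 3.16. The Ccnd2 3′ end, the highest of them, ranked 4458 by fold, against 22 by IP reads per kb, and the smaller E2f3 region ranked 6423. Ccnd2 had 32.9 times the median IP density at its 3′ end and 32.8 times the median input density, so it was abundant in both.

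GGAC was searched on the transcribed strand in windows of 200 bp at the centre of each region. Both regions by name and 5 of 8 by exon held it, beside 61.8% of the 6443 windows that could be given a strand. On the opposite strand, 55.6% of those windows held it. GGACT, which is part of the GGAC matches, was in 3 of 8 windows by exon, beside 21.8% of all. The whole Ccnd2 3′ region held 23 GGAC, or 4.07 per kb, beside a median of 4.09 per kb over all regions. Ccnd2 exon 1 held 6, or 7.06 per kb, and the larger E2f3 region held 12, or 4.76 per kb, of which 6 were GGACT. The Cdk6 region that spans the stop codon held 5, or 1.83 per kb. The smaller E2f3 region, exons 3 and 4 of Ccnd2, exon 6 of Cdk6 and 3 other stretches of the Cdk6 3′UTR held none. The Myc peak held 3 within 210 bases. These are letters in a window, with no measurement of m6A.

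Beside the 10 genes, a list of 40 others of the same circuit was read: MYC partners and antagonists, other CDKs and cyclins, CDK inhibitors, pocket proteins, E2F factors and p53 targets. By the names of the peaks, 24 of these had a kept peak and 9 had peaks in all 4 lists. A region called in all 4 lists was held by 6, with 11 regions in all. Those named Rbl2 and Tfdp2 lay on exons of Chd9 and Gk5, and on no exon of the gene named. In edgeR 2 of the 11 rose and 0 fell for IP reads per base, where 0.184% of all 6531 regions rose and 0.934% fell. For input reads per base 3 rose and 0 fell, against 0.214% and 0.766% of all regions. In the ratio 0 changed, with 1 at an unadjusted p under 0.05 (183 of all 6531 regions had one). All regions that rose were parts of 1 gene, Mnt, which encodes a repressor that pairs with MAX and opposes MYC. None of the 11 changed 1.8-fold in IP/input fold in both replicates.

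The largest Mnt region (chr11:74841961-74845700, exons 5 and 6 with the 3′UTR) had 2138 and 2117 IP reads under normal conditions and 17052 and 12438 after starvation. Its input reads were 578 and 677 under normal conditions and 2199 and 2306 after starvation. Per kb, these were 1.73 and 1.51 times the library median of IP under normal conditions and 7.63 and 6.13 times after starvation, and 1.59 and 1.34 and then 6.18 and 5.06 times for input. The conditions did not overlap for either, and the share of all regions with such an order in IP or input was not counted. Mnt was named because regions of it passed the edgeR tests on these same reads, so this order is no further support. In edgeR the IP reads per base rose 4.27-fold (log2 2.09, SE 0.22, adjusted p = 0.00761) and the input reads per base rose 3.80-fold (log2 1.93, SE 0.23, adjusted p = 0.00761).

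The IP/input fold of that Mnt region was 2.98 and 3.13 under normal conditions and 3.32 and 3.60 after starvation, a ratio change of 0.15 on the log2 scale (SE 0.17, edgeR adjusted p = 0.999). Exon 2 (chr11:74836151-74837180) rose 3.95-fold in IP (adjusted p = 0.00761) and 3.22-fold in input (edgeR adjusted p = 0.0243). Exons 3 and 4 (chr11:74837201-74837960) rose 6.75-fold in input (edgeR adjusted p = 0.0408), where normal inputs had 8 and 5 reads, and their IP change of 3.62-fold did not pass (adjusted p = 0.0549). Exon 1 (chr11:74830831-74831640) had an IP change of 3.60-fold (edgeR adjusted p = 0.0925) and an input change of 3.33-fold (adjusted p = 0.1003) that did not pass. At exons 3 and 4 the IP/input fold was 6.95 and 5.80 under normal conditions and 3.47 and 3.41 after starvation, lower in both replicates (log2 change of the ratio -0.94, SE 0.44, edgeR adjusted p = 0.999). Without the offset for covered length, the called Mnt regions had log2 changes of 2.08 and 2.31 for IP. For input they were 1.91, 2.01 and 3.65. Their edgeR adjusted p was then 0.19 to 0.222, and 0 regions of the whole series passed for IP or input. Changes without the offset take in peak length too, and the starved Mnt peaks covered more bases. At the largest region the log2 change of IP was nearly the same without the offset (2.08) as with it (2.09). Exon 2 had 740 and 730 bases covered under normal conditions and 1020 and 970 after starvation. Exons 3 and 4 had 460 and 270, then 760 and 700. DESeq2 called all 4 Mnt regions for both IP and input. Mnt had more reads in both IP and input after starvation, while the Myc mRNA itself gave no peak that could be compared.

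**Figure D5:**
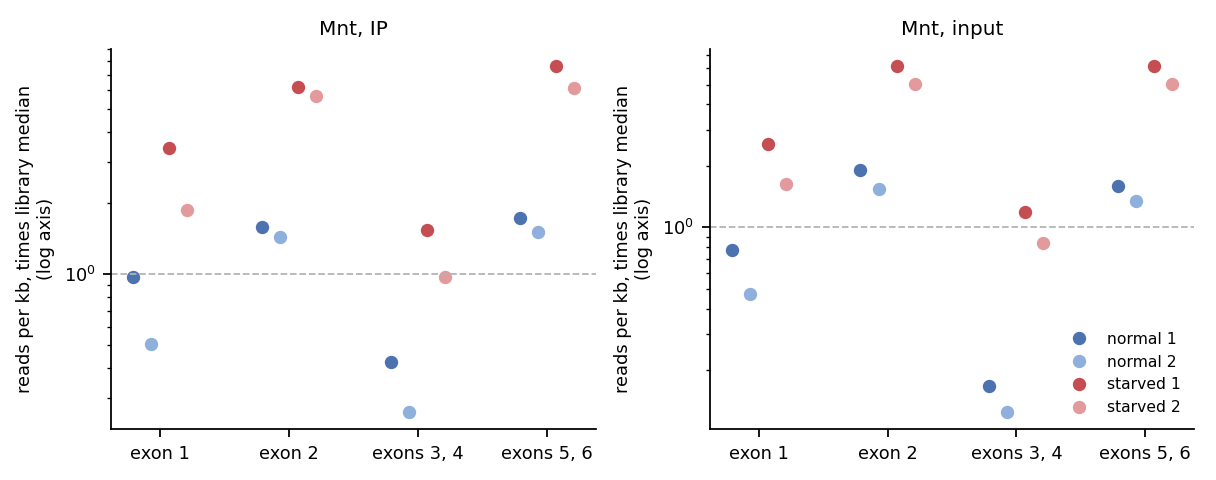
IP (left) and input (right) reads per kb of the 4 Mnt regions called in all 4 lists, as times the median region of each library, on log axes, 1 point per library. Starved libraries lie above normal ones in every region and in both assays, in a gene that was named for passing the tests on these reads.

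The kept peaks held 8818619 to 19271667 IP reads and 2507434 to 5157523 input reads per list, over 9590 to 14874 kb. Reads outside the peaks are not in these sums, so the depth of each library is unknown. Peaks with at most 3 input reads were 14.0% to 16.4% of 3 lists and 25.4% of starved replicate 1, the list in which Cdk6 lacked peaks at its start, and the part of this in the result was not tested. Among cell type markers, taken by the names of the peaks, 6 of 9 fibroblast markers had a peak in at least 1 list. Col1a1, Vim and S100a4 had none. A gene without a peak is not thereby unexpressed, so these counts cannot check the cell type. Summed input reads of the fibroblast markers were 5006 to 15806 under normal conditions and 5164 to 17641 after starvation. Col3a1 and Pdgfrb had peaks in all 4 lists, and Col1a2 in replicate 1 alone. Fn1 and Thy1 had 1 peak each, in normal replicate 2, with 6 and 0 input reads. Of 4 epithelial and 4 blood markers 0 had a peak. Of 3 endothelial markers 1 (Kdr) did, in all 4 lists, with at most 5 input reads.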

How the data were processed

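YTHDF3 RIP-seq of MEFs was analysed in 4 IP peak lists, each made against an input. According to their methods the authors trimmed reads with Trimmomatic, aligned them to mm10 (TopHat2 2.0.13 in the submitters' processing notes), called peaks with diffReps and annotated them with HOMER by the nearest gene start. The authors made the values by counting IP and input reads in each peak, and the list of normal replicate 2 holds these counts as deposited. In the other 3 lists the authors normalized the reads to a signal, which from the values is reads multiplied by 1 factor per library (0.655 to 1.53). The authors also deposited p-values, and the log2 ratio of their own comparison of IP with input, which was not used. The lists do not name the inputs, so the input with the matching condition and number was assumed.

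Dividing by the factor gave whole reads (within 0.1 read) for 100% of values up to 300 reads, and these were used as counts. Peaks with IP/input of at least 2 and p under 0.0001 were kept (17364, 21943, 23088 and 24701). Within a list, 7 pairs of kept peaks overlapped. Replicates were compared for duplicated libraries. Of peaks with identical coordinates, 1 of 86 had equal IP reads in both normal lists and 0 of 187 in both starved lists.

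IP reads, input reads and their ratio (a term for each culture) were tested with the edgeR 4.0.16 quasi-likelihood test in R 4.3.3, with TMM normalization, an offset for covered length in the first 2, and Benjamini-Hochberg adjustment over all 6531 regions. DESeq2 1.42.0 was an alternative, as were thresholds, overlap, naming by exon, normalization, a read filter, a replicate block and leaving out each replicate. The fits and the motif search were tested on simulated data. Log2 changes of reads per kb within a replicate number were scaled by the median region of each library. The rest used Python 3.11.15 (matplotlib 3.10.9, pysam 0.24.0, scipy 1.17.1, numpy 2.4.6 and pandas 2.3.3).

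The 10 genes, the 40 other G1 genes, the cell type markers and the tests were chosen with earlier results of these data known. Genes named from the list of 40 are those with a region past an edgeR test or changed 1.8-fold in both replicates. The main region of a gene is that with the most IP reads among regions of its name called in all 4 lists, and its GGAC nearest the centre is shown. The Myc peak and the 3′ regions, which carry other names, were added after their values were seen. Myc had no main region, so the planned choice of regions most like it was not possible. Reads outside peaks and the other experiments of the study were not analysed here.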

Additional observations from a re-analysis of the deposited data

How the results depend on the processing

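Every alternative run gave 0 called regions among those of the 10 genes by name, in IP/input fold changed in both replicates and in the edgeR and DESeq2 tests of ratio, IP and input. A minimum fold of 4 left no region of the genes in all 4 lists, so it gave no value. The median log2 change of the fold, 0.09 over 2 regions, became 0.27 with 50% reciprocal overlap (1 region), 0.27 with all deposited peaks (3 regions, an alternative chosen after seeing the data) and 0.0035 by exon overlap (8 regions). It was 0.07 to 0.11 in 1 replicate number alone. These settings change which regions are counted. Fitted log2 changes of the 8 exon regions, none of them called, changed sign under some settings, such as -0.44 to 0.19 for IP reads at exon 4 of Cdk6. The Ccnd2 exon 1 ratio stayed positive, 0.18 to 0.33, over the 8 settings run on the same regions.

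Of the 11 regions that carried the names of other G1 genes, the 2 called for IP became 4 with DESeq2 and 0 without the length offset. All 4 were in Mnt. Without the offset the log2 change of IP was 2.08 at the largest Mnt region and 2.31 at exon 2 (edgeR adjusted p = 0.222 for both). With the offset these were 2.09 and 1.98, so the largest region hardly moved. The 3 called for input became 0 without the length offset (log2 changes of 1.91, 2.01 and 3.65, adjusted p 0.19 to 0.211) and 2 to 4 when 1 library was left out, and without starved replicate 1 the call at exons 3 and 4 was lost (edgeR adjusted p = 0.0931). Over all regions the IP test called 12 higher and 61 lower, and DESeq2 called 67 and 113. For input, edgeR called 14 and 50 and DESeq2 41 and 83. With 50% reciprocal overlap the counts were 36 and 70 for IP and 31 and 78 for input, over 4230 regions. With reads summed per gene name they were 8 and 31 for IP and 9 and 31 for input, over 2655 genes. With a minimum fold of 4 they were 0 and 0 for IP (29 at an unadjusted p under 0.05) and 1 and 1 for input, over 334 regions. Without the length offset both tests called 0, with 550 regions for IP and 508 for input at an unadjusted p under 0.05. Leaving out a library gave 7 to 83 higher and 32 to 118 lower for IP, and 25 to 89 and 60 to 128 for input.

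Same-numbered replicates also share a set code in the labels, which do not say what it stands for, so the test without pairing was kept. Deviations of same-numbered samples correlated across regions (r = 0.451 for IP, 0.31 for input and 0.271 for the fold, over 6531 regions). With a replicate block, 0 regions of the 10 genes were called, all 4 Mnt regions were called for IP and for input, which adds exon 1 (edgeR adjusted p = 7.18e-05 for IP and 0.00634 for input) and the IP of exons 3 and 4 (0.000509), and over all regions 321 rose and 329 fell for IP and 108 and 150 for input.

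With 2 replicates, reads in called peaks alone and regions whose parts differ between lists, small differences were not detectable. The cause of the differences between settings was not tested.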
